A study of Mus musculus with 2 samples.

Results

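The genes of the proteasome were chosen by name: every symbol formed as Psma, Psmb, Psmc, Psmd, Psme, Psmf or Psmg followed by a number, with pseudogene names left out. The rule found 50 genes of 22802 in the 2 deposited count tables together, 50 of 21459 in the embryoid table and 49 of 19307 in the blastocyst table, which has no line for Psmb8. Of the 50 genes, the 31 that encode constitutive subunits of the complex are called the core below. The other 19 are 3 immunoproteasome subunits, the testis form Psma8, the thymus form Psmb11, 5 genes named as activators, the inhibitor Psmf1, 7 assembly chaperones and Psmc3ip. Psmc3ip carries the name but encodes a meiotic recombination factor, and Psme2b is nearly identical to Psme2, so that UMIs of those 2 genes may have been split between them.

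Single cells of 2 mouse samples were profiled with the BD Rhapsody whole transcriptome assay, which counts polyadenylated RNA as unique molecular identifiers (UMIs), and each sample was 1 library from 6000 cells. The first sample was whole embryos of strain B6C3F1 at embryonic day 4.5, the stage of the late blastocyst. The second was embryoids, aggregates of 10000 ES cells with 50000 to 80000 XTE cells. The ES cells came from Lifeact-RFPRuby mice and were kept with serum, Lif and the inhibitors PD0325901 and CHIR99021. The XTE cells, made by reprogramming an ES line that carries Gata6-H2B:Venus, were kept in N2B27 with CHIR99021, BMP4, Fgf4, heparin and Activin. Aggregates spent 48 h in microwells and then 48 h in repellent plates. With 1 library per sample, no p-value or standard error can be given, and the embryoid cannot be told apart from its library. All intervals are 95% intervals that cover counting error only.

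After filtering, 1080 of 1288 blastocyst barcodes (median 9273 UMIs) and 5328 of 5546 embryoid barcodes (median 4768.5 UMIs) were kept, and 7 kept barcodes occurred in both libraries. Clusters of the blastocyst took the names epiblast-like (EPI-like, 258 cells), primitive endoderm-like (PrE-like, 446 cells) and trophectoderm-like (TE-like, 376 cells). In the embryoid, 3944 cells were PrE-like, 108 EPI-like and 103 resembled fibroblasts or mesoderm outside the embryo (FIB-like). In both EPI-like classes 14 of 15 epiblast markers reached 20 CPM (UMIs of a gene scaled to a fixed total per class). So did 15 of 15 primitive endoderm markers in both PrE-like classes and 17 of 19 trophectoderm markers in blastocyst TE-like cells. In FIB-like cells 11 of 12 FIB markers did. The clusters themselves were named by a narrower rule, given with the processing. It counted 9 to 11 of 15 primitive endoderm markers in the named embryoid PrE-like clusters, and 12 and 14 in the blastocyst ones. For epiblast markers it counted 12 or 13 of 15 in each EPI-like cluster. Primitive endoderm markers were also present elsewhere in the embryoid, with 11 of 15 at 20 CPM or more in both EPI-like cells (summed level 1372 CPM) and FIB-like cells (2829 CPM), against 13759 CPM in PrE-like cells. No embryoid cluster took the TE-like name: the 19 trophectoderm markers summed to 1185 CPM in embryoid PrE-like cells, against 10866 CPM in blastocyst TE-like cells. Clusters 3, 6 and 11 of the embryoid (753, 334 and 86 cells) stayed unnamed. The median mitochondrial share of UMIs was 9.33 to 11.8% in the blastocyst classes and 5.20 to 6.54% in the named embryoid classes.

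The proteasome degrades proteins that carry a chain of ubiquitin. Its core particle is a barrel of rings, in which Psma subunits form the outer gates and Psmb subunits the inner rings, and Psmb5, Psmb6 and Psmb7 hold the proteolytic sites. The regulatory particle caps the barrel: the Psmc subunits are ATPases that unfold and thread the substrate, and the Psmd subunits recognise ubiquitin and remove it. Other caps, encoded by Psme genes, open the gate without ubiquitin recognition, and in cells exposed to interferon Psmb8, Psmb9 and Psmb10 replace the constitutive proteolytic subunits and alter the peptides made for MHC class I.

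Promoter sequence was taken from the RefSeq table for build GRCm38.p6, which held 42 of the 50 members, as the 250 bases before the annotated start. Psmb5 and Psmb6 are shown as the constitutive proteolytic subunits whose windows hold a match to the antioxidant response element (TGACNNNGC), through which Nfe2l1 and Nfe2l2 are known to act on proteasome genes. Psmb8 is shown as the immunoproteasome subunit whose window holds a GAS element (TTCNNNGAA), known from promoters that answer interferon. Psme4 is shown because its level varied most between the 3 blastocyst classes, and its window holds none of the 4 motifs searched. Capitals mark the match, and each sequence runs 5′ to 3′ on the gene's strand: Psmb5 is chr14:54617996-54618245 on the minus strand, Psmb6 chr11:70525107-70525356, Psmb8 chr17:34197945-34198194 and Psme4 chr11:30771525-30771774, all 3 on the plus strand.
Psmb5: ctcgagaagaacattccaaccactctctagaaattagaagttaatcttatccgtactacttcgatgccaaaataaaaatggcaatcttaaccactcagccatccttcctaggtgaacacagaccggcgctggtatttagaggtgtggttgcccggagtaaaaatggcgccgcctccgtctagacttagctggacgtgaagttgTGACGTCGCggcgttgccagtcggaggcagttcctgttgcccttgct
Psmb6: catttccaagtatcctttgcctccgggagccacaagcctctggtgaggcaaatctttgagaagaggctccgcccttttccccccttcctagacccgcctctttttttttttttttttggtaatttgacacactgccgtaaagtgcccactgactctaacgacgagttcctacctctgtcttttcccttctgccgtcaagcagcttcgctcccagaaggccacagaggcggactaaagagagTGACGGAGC
Psmb8: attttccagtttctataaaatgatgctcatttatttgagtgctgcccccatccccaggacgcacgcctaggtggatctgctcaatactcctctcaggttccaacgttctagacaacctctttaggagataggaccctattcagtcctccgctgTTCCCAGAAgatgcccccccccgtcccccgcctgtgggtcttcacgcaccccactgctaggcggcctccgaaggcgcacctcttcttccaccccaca
Psme4: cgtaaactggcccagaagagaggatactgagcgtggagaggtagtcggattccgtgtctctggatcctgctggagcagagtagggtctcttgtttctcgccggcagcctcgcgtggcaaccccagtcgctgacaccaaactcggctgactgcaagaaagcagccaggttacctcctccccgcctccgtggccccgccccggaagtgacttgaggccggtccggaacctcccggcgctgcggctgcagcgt

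The match begins 47 bases before the annotated start in Psmb5, 9 bases before it in Psmb6 and 97 bases before it in Psmb8. These starts are those of the RefSeq table and differ from the GENCODE positions used below. By GENCODE, Psmb8 starts at chr17:34197721, so that its whole window and the match lie within the gene. The windows of Psmb5 and Psme4 reach into the gene by that annotation. Over both strands, the antioxidant element was found in 5 of the 42 member windows (Psmb5, Psmb6, Psmc6, Psmd9 and Psmd12), or 11.9%, against 11.5% of 27025 genes with a window of the same length. The CCAAT box bound by NF-Y was found in 15 of 42, or 35.7%, against 37.5%. The GAS element was found in 2 (Psmb8 and Psmg1), or 4.76%, against 8.13%, and an interferon element of paired GAAA repeats in 3 (Psmb3, Psmd4 and Psmd9), or 7.14%, against 3.46%. These counts are small, and a match to the letters is a description, not a bound site.

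Core subunits were highest in EPI-like cells of both libraries. Their summed level was 8195 CPM (8086 to 8305) in blastocyst EPI-like, 6613 CPM (6535 to 6692) in PrE-like and 6454 CPM (6371 to 6538) in TE-like cells. In the embryoid it was 6965 CPM (6774 to 7161) in EPI-like, 5418 CPM (5388 to 5449) in PrE-like and 5442 CPM (5214 to 5678) in FIB-like cells. The level in embryoid EPI-like cells lay between those of blastocyst EPI-like and PrE-like cells, and embryoid PrE-like and FIB-like cells had overlapping intervals. In the blastocyst 28 of the 31 core subunits were highest in EPI-like cells, against 38.4% of all genes with a mean of 10 CPM or more over the 3 classes. In the embryoid 28 of 31 were highest in EPI-like cells, against 32.6% of all such genes.

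EPI-like cells also had the highest median per cell in each library. With every cell thinned to 2000 UMIs, the median share of a cell's UMIs from core genes was 0.8% in blastocyst EPI-like cells (quartiles 0.6 and 0.95), 0.65% in PrE-like and 0.6% in TE-like cells. It was 0.65% in embryoid EPI-like cells and 0.5% in both PrE-like and FIB-like cells. Shallower cells were left out, from 4 embryoid EPI-like to 240 embryoid PrE-like cells. Unthinned medians were 0.782, 0.662 and 0.604% in the blastocyst and 0.688, 0.52 and 0.516% in the embryoid, with the classes listed as before.

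Clusters of 1 class differed from each other, most of all in the TE-like class. The 2 EPI-like clusters of the blastocyst had 7322 CPM (cluster 2, led by Prdm14, Ifitm1 and Nanog) and 9599 CPM (cluster 5, led by Lef1, Igfbp2 and Ace) of core transcripts. The 2 PrE-like clusters had 6237 and 7461 CPM. The 3 TE-like clusters ranged from 5341 CPM (cluster 4, led by Ctsll3, BC051665 and Krt19) over 6369 CPM to 8843 CPM (cluster 6, 42 cells led by Cald1, Irx3 and S100a6). The highest TE-like cluster thus lay above the lower EPI-like cluster. The higher PrE-like cluster (7311 to 7613 CPM) overlapped the lower EPI-like cluster (7191 to 7454 CPM) within counting error. Depth and mitochondrial share moved with these levels: clusters 5 and 6 had the highest median UMIs (13662 and 11700.5) and mitochondrial shares of 8.59 and 8.05%, against 12.3% in the largest TE-like cluster. With mitochondrial and ribosomal protein genes left out of the total, the core level was still 11823 CPM in cluster 5 and 11121 CPM in cluster 6. On that scale it was 9241 CPM in cluster 2, 7714 and 8974 CPM in the PrE-like clusters and 6690 to 8110 CPM in the other TE-like clusters. The part of depth in these differences was not tested. The 7 PrE-like clusters of the embryoid were closer together, between 4984 and 5784 CPM, and all lay below the 7 clusters of the blastocyst except TE-like cluster 4.

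**Figure D1:**
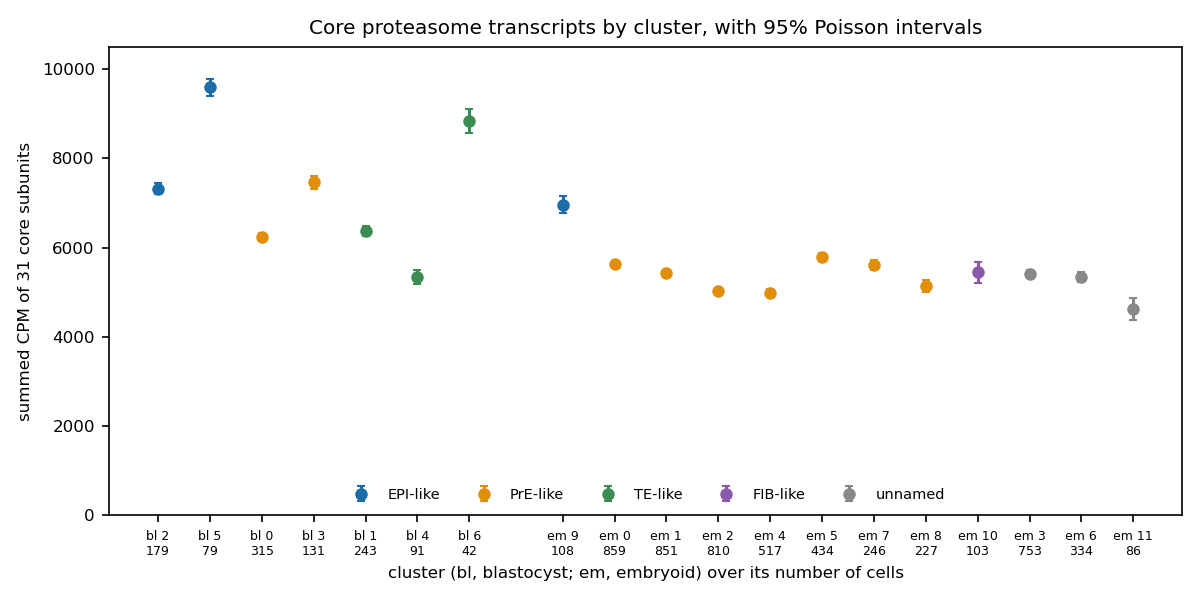
Summed CPM of the 31 core subunits in each cluster (points, with 95% Poisson intervals), by library and class, with the number of cells under each cluster. The blastocyst TE-like clusters range from 5341 to 8843 CPM, and the embryoid PrE-like clusters from 4984 to 5784 CPM.

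Single core subunits varied little between the classes of the blastocyst. The fold between the highest and the lowest of the 3 classes had a median of 1.35 over the core, against 1.95 over all 8307 genes compared, and ranged from 1.11 in Psmb3 to 2.31 in Psmc1. Psmc1 was the only core subunit at 2-fold or more, against 48.4% of all genes. Over all 6 named classes of both libraries the median was 1.77, against 3.21 over 8961 genes, and 10 of 31 core subunits reached 2-fold, against 81.6% of all genes. All genes here were those with a mean of 10 CPM or more over the classes, not matched to the core in level. Counting error widens this fold most for genes with few UMIs, and the part of level in the gap was not tested.

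**Figure D2:**
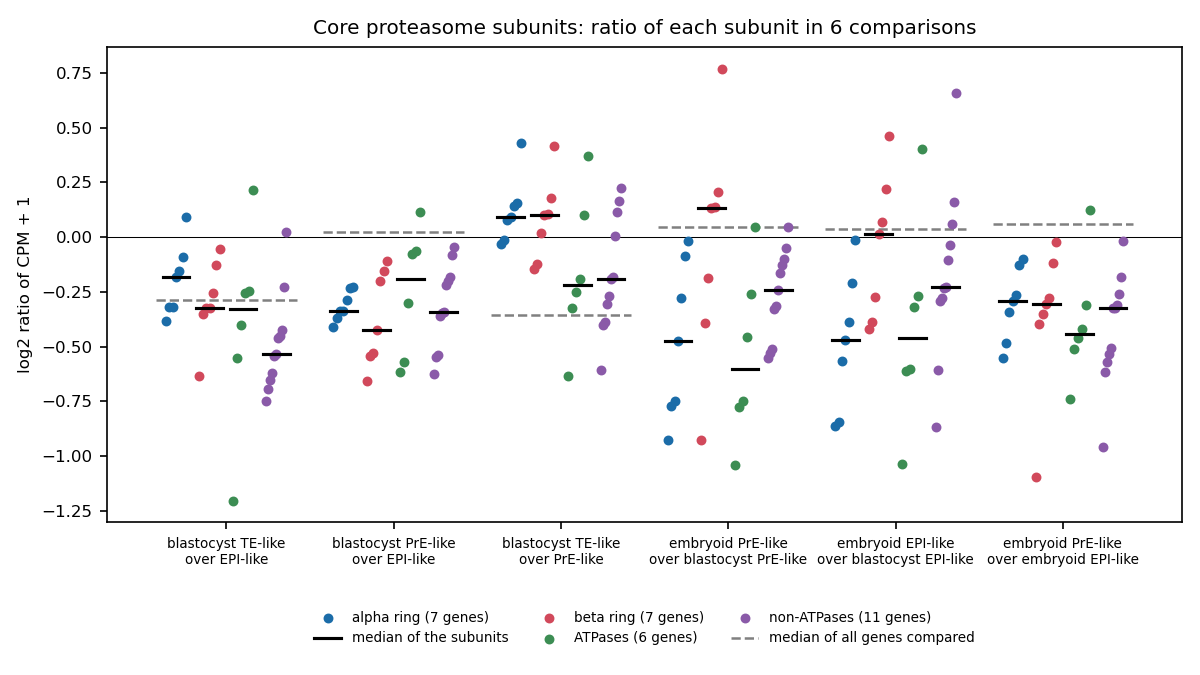
Log2 ratio of each core subunit in 6 comparisons (points, coloured by subcomplex, with a black line at the median of the subcomplex and a dashed line at the median of all genes compared). In PrE-like over EPI-like cells 30 of 31 subunits lie below the line of all genes, and 19 of 31 in TE-like over EPI-like cells. In both comparisons of embryoid with blastocyst the medians of the alpha ring and ATPases lie below that of the beta ring, while single subunits overlap.

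Ratios between classes are log2 ratios after adding 1 CPM, over genes with a mean of 10 CPM or more in the 2 profiles, and comparisons that use the same class share its cells. In TE-like over EPI-like cells of the blastocyst the core had a median log2 ratio of -0.32, near that of all 8072 genes (-0.29), and of -0.04 once scaled to the median of ratios. In PrE-like over EPI-like cells the core median was -0.34 against 0.02 over all genes, and 30 of 31 core subunits lay below the median of all genes. In TE-like over PrE-like cells it was 0.01 against -0.36, so that 27 of 31 lay above the median of all genes, and 0.36 once scaled to the median of ratios. In embryoid PrE-like over EPI-like cells it was -0.32 against 0.06, again with 30 of 31 below the median of all genes.

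Few members were 1.5-fold or more higher in any comparison. Of 44 members compared in TE-like over EPI-like cells, 0 were higher and 13 lower, against 20.7% and 37.2% of all genes. In PrE-like over EPI-like cells 0 of 44 were higher and 9 lower, against 22.4% and 17.4%. In TE-like over PrE-like cells 1 of 43 was higher and 7 lower, against 15.8% and 37.5%. Within the embryoid, in PrE-like over EPI-like cells, 1 of 45 was higher and 13 lower, against 30.4% and 23.1%. Of 44 members in embryoid over blastocyst PrE-like cells, 3 were higher and 11 lower, against 26.3% and 20.9%. Of 45 in the EPI-like classes of the 2 libraries, 4 were higher and 9 lower in the embryoid, against 23.1% and 18.9%. Scaled to the median of ratios, TE-like cells had 1 member higher and 6 lower than EPI-like cells, and 4 higher and 1 lower than PrE-like cells. The shares of all genes above are not on that scale, so that these rescaled counts have no background. On the CPM scale, the counts of lower members ran from below the background to somewhat above it. Higher members were fewer than the background in every comparison on that CPM scale. These backgrounds were not matched to the members in level.

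The alpha ring, the gate of the barrel, set the 2 libraries apart. Its 7 subunits summed to 2120, 1703 and 1913 CPM in blastocyst EPI-like, PrE-like and TE-like cells, and to 1448, 1154 and 1141 CPM in embryoid EPI-like, PrE-like and FIB-like cells. The 7 subunits of the constitutive beta ring summed to 2013, 1634 and 1628 CPM in the blastocyst and to 1912, 1633 and 1457 CPM in the embryoid. All 3 embryoid levels of the alpha ring lay below all 3 blastocyst levels, whereas the beta rings of the PrE-like classes had overlapping intervals. The alpha ring thus made up 51.3% (50.4 to 52.2), 51.0% (50.2 to 51.9) and 54.0% (53.2 to 54.9) of core particle UMIs in the blastocyst classes, and 43.1% (41.1 to 45.1), 41.4% (41.0 to 41.8) and 43.9% (40.8 to 47.0) in the embryoid classes.

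**Figure D3:**
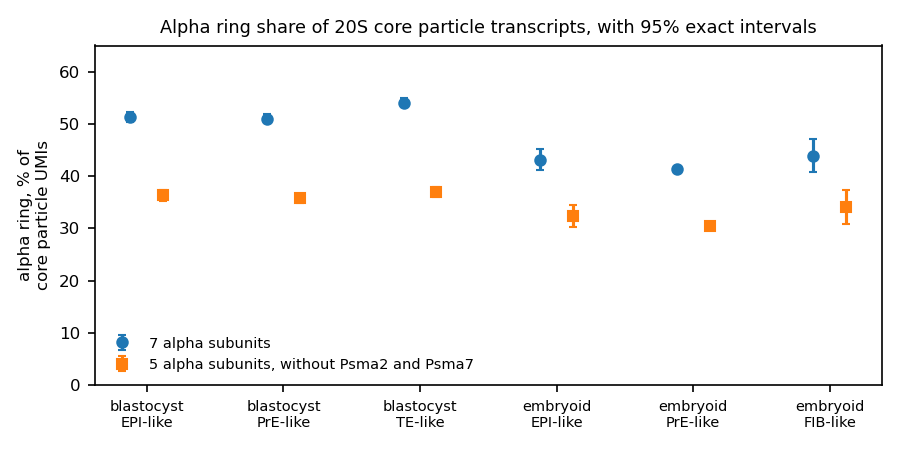
Alpha ring UMIs as a percent of alpha and beta ring UMIs in each class (circles), and the same without Psma2 and Psma7 (squares), with 95% Clopper-Pearson intervals. The shares of 7 subunits run from 51.0 to 54.0% in the blastocyst and from 41.4 to 43.9% in the embryoid.

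Psma2, an alpha ring subunit, had 525, 415 and 560 CPM in blastocyst EPI-like, PrE-like and TE-like cells and 292, 243 and 209 CPM in embryoid EPI-like, PrE-like and FIB-like cells. Psma7 had 445, 379 and 400 CPM in the blastocyst and 244, 199 and 181 CPM in the embryoid. Both genes were lower in every embryoid class than in any blastocyst class. Without these 2 genes the alpha share was 36.4% (35.3 to 37.4), 35.7% (34.8 to 36.7) and 36.9% (35.9 to 37.9) in the blastocyst, and 32.3% (30.3 to 34.4), 30.4% (upper bound 30.8) and 34.0% (30.9 to 37.3) in the embryoid. The interval of FIB-like cells then overlapped those of all 3 blastocyst classes, and those of the other embryoid classes did not. The log2 ratio of embryoid over blastocyst PrE-like cells was -0.77 (-0.85 to -0.69) for Psma2, -0.93 (-1.01 to -0.85) for Psma7 and -0.75 (-0.85 to -0.65) for Psma4. Psma5 and Psma6, in contrast, had -0.02 (-0.16 to 0.13) and -0.09 (-0.20 to 0.03). The annotation places AW209491 over Psma2 on the same strand, and how the authors counted such reads is not given in the sources used here.

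Within the beta ring, the subunits moved in both directions between the libraries. Psmb7, which holds the trypsin-like site, had 114, 71.7 and 72.8 CPM in blastocyst EPI-like, PrE-like and TE-like cells. It had 157, 123 and 122 CPM in embryoid EPI-like, PrE-like and FIB-like cells. Every embryoid value lay above every blastocyst value. The intervals of embryoid PrE-like (118 to 128 CPM) and FIB-like cells (90.1 to 162 CPM) overlapped that of blastocyst EPI-like cells (101 to 127 CPM). The log2 ratio of Psmb7 was 0.77 (0.60 to 0.96) in embryoid over blastocyst PrE-like cells, the highest of the core there. Psmb3, a structural subunit, had 96.2, 86.3 and 92.6 CPM in the blastocyst, 97.2 CPM in embryoid EPI-like cells, and 44.9 and 45.8 CPM in embryoid PrE-like and FIB-like cells. Its log2 ratio was -1.10 (-1.46 to -0.74) in embryoid PrE-like over EPI-like cells and -0.16 (-0.39 to 0.08) in the same contrast of the blastocyst. The difference between those ratios was not tested.

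Psmb5, which holds the chymotrypsin-like site, had 56.1, 38.2 and 51.3 CPM in the blastocyst and 41.7, 33.5 and 33.1 CPM in the embryoid. Psmb6, which holds the caspase-like site, had 199, 137 and 155 CPM in the blastocyst and 208, 158 and 158 CPM in the embryoid. All 3 proteolytic subunits were lowest in PrE-like cells within the blastocyst, with log2 ratios of PrE-like over EPI-like cells of -0.54 (-0.89 to -0.22) for Psmb5, -0.53 (-0.71 to -0.36) for Psmb6 and -0.66 (-0.90 to -0.43) for Psmb7. Psmb7 in TE-like cells was within counting error of PrE-like cells (0.02, -0.23 to 0.27). Psmb2 and Psmb4, which are not proteolytic, had log2 ratios between -0.39 and 0.22 in all 6 comparisons.

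The ATPase ring had the subunit that differed most within the core. The 6 ATPases summed to 1430, 1172 and 1035 CPM in blastocyst EPI-like, PrE-like and TE-like cells and to 1061, 827 and 866 CPM in embryoid EPI-like, PrE-like and FIB-like cells. Psmc1 had 434, 292 and 188 CPM in the blastocyst and 211, 170 and 216 CPM in the embryoid. Blastocyst EPI-like cells stood above all others, and blastocyst TE-like cells were at the level of the embryoid. The log2 ratio of Psmc1 was -1.20 (-1.35 to -1.07) in TE-like over EPI-like cells, -0.57 (-0.69 to -0.45) in PrE-like over EPI-like cells and -1.04 (-1.29 to -0.79) in embryoid over blastocyst EPI-like cells. Across blastocyst clusters it was 391 and 503 CPM in the EPI-like, 276 and 328 CPM in the PrE-like and 165 to 266 CPM in the TE-like clusters, without overlap of EPI-like with the others.

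Psmc2 had 204, 133 and 172 CPM in the blastocyst and was the ATPase with the lowest ratio of PrE-like over EPI-like cells (-0.62, -0.80 to -0.45). Psmc5 had 222, 180 and 151 CPM in the blastocyst and 146, 86.9 and 81.5 CPM in the embryoid, with a log2 ratio of -1.04 (-1.17 to -0.93) in embryoid over blastocyst PrE-like cells. Psmc4 was at -0.75 (-0.88 to -0.63) in that comparison. Psmc6 was not lower in the embryoid: it was at 0.05 (-0.06 to 0.16) there and at 0.40 (0.16 to 0.64) in EPI-like cells. Psmc3 had 205 and 171 CPM in blastocyst and embryoid PrE-like cells, and 189 and 157 CPM in the EPI-like classes. Within the blastocyst, Psmc3 was the only core ATPase with a ratio above 0 in TE-like over EPI-like cells (0.22, 0.05 to 0.38). The ATPases, which assemble into 1 ring, therefore did not share 1 ratio between the libraries: their median was -0.60 in PrE-like cells, with a range from -1.04 to 0.05.

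The 11 non-ATPase subunits of the core lie in the base and lid. They summed to 2632, 2104 and 1878 CPM in the blastocyst classes. In the embryoid EPI-like, PrE-like and FIB-like classes they summed to 2544, 1803 and 1979 CPM. Their median log2 ratio was -0.54 in TE-like over EPI-like cells, lower than that of the alpha ring (-0.18), the beta ring (-0.32) and the ATPases (-0.33). The largest of these differences was that of Psmd1, a base scaffold, with 226 CPM in EPI-like and 134 CPM in TE-like cells (-0.75, -0.93 to -0.58), followed by Psmd3, a lid subunit, with 156 and 96.5 CPM (-0.69, -0.91 to -0.49). Psmd8 was at 0.02 (-0.15 to 0.20), below which the other 10 all lay. Psmd12 and Psmd2, a lid and a base subunit, had -0.65 (-0.79 to -0.52) and -0.62 (-0.79 to -0.45).

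Psmd7, a lid subunit that pairs with the deubiquitinase Psmd14, was highest in embryoid EPI-like cells. It had 338, 266 and 233 CPM in blastocyst EPI-like, PrE-like and TE-like cells and 535, 275 and 369 CPM in embryoid EPI-like, PrE-like and FIB-like cells. The log2 ratio in embryoid over blastocyst EPI-like cells was 0.66 (0.48 to 0.83), and that in embryoid PrE-like over EPI-like cells was -0.96 (-1.11 to -0.81). Psmd14 did not follow it: it had 261, 253 and 222 CPM in the blastocyst and 222, 177 and 171 CPM in the embryoid. Psmd13, a lid subunit, was at -0.87 (-1.41 to -0.38) in embryoid over blastocyst EPI-like cells, and the annotation places Sirt3 over it.

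Among the activators, Psme4 differed more between the blastocyst classes than any core subunit. Psme4 encodes PA200, a large nuclear cap linked to chromatin and to spermatogenesis, and lies at chr11:30771726-30880361 on the plus strand of GRCm38. It had 913 CPM (877 to 950) in blastocyst EPI-like, 277 CPM in PrE-like and 105 CPM in TE-like cells, and 233, 145 and 181 CPM in embryoid EPI-like, PrE-like and FIB-like cells. The blastocyst EPI-like level stood apart from all other classes, and that of embryoid EPI-like cells lay below blastocyst PrE-like cells. The log2 ratio was -3.11 (-3.28 to -2.96) in TE-like over EPI-like cells, -1.72 (-1.83 to -1.62) in PrE-like over EPI-like cells and -1.39 (-1.57 to -1.23) in TE-like over PrE-like cells. Embryoid over blastocyst, it was -1.96 (-2.20 to -1.74) for EPI-like and -0.93 (-1.03 to -0.84) for PrE-like cells.

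Unlike the core, Psme4 did not overlap between the classes by cluster. The 2 EPI-like clusters of the blastocyst had 825 and 968 CPM, the 2 PrE-like clusters 242 and 292 CPM, and the 3 TE-like clusters 98.4 to 121 CPM. Among the EPI-like clusters the one with more core transcripts had less Psme4, and the TE-like cluster with 8843 CPM of core had 98.4 CPM of Psme4. In the embryoid the 7 PrE-like clusters had 117 to 180 CPM. A pseudogene (Gm12103) lies within Psme4 on the opposite strand, and whether strand was used in counting is not given in the sources used here.

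Psme3 encodes PA28 gamma, a nuclear cap. It had 393 CPM in EPI-like, 469 CPM in PrE-like and 262 CPM in TE-like cells of the blastocyst, and 286, 185 and 191 CPM in embryoid EPI-like, PrE-like and FIB-like cells. It was thus highest in PrE-like cells of the blastocyst but in EPI-like cells of the embryoid. The log2 ratio of PrE-like over EPI-like cells was 0.25 (0.15 to 0.37) in the blastocyst and -0.63 (-0.83 to -0.42) in the embryoid, and that of embryoid over blastocyst PrE-like cells was -1.34 (-1.42 to -1.27), the lowest of all members there. By cluster, the blastocyst PrE-like values (415 and 590 CPM) overlapped the EPI-like values (347 and 468 CPM), and the TE-like values ran from 225 to 471 CPM.

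Psme1 and Psme2 encode PA28 alpha and beta, which form the interferon-inducible cap together. Psme1 had 41.3, 27.7 and 57.7 CPM in blastocyst EPI-like, PrE-like and TE-like cells, and 87.5, 101 and 96.8 CPM in embryoid EPI-like, PrE-like and FIB-like cells. Psme2 had 10.6, 5.11 and 10.6 CPM in the blastocyst, from 28, 21 and 38 UMIs, and 23.6, 50.9 and 22.9 CPM in the embryoid, from 17, 1119 and 9 UMIs. Both genes were higher in every named embryoid class than in any blastocyst class, the reverse of Psme3 and Psme4 in PrE-like cells. For Psme2, the intervals of embryoid EPI-like (13.8 to 37.8 CPM) and FIB-like cells (10.5 to 43.5 CPM) overlapped those of blastocyst EPI-like (7.05 to 15.3 CPM) and TE-like cells (7.50 to 14.5 CPM). Between the PrE-like classes the log2 ratio of embryoid over blastocyst was 1.84 (1.60 to 2.16) for Psme1, and for Psme2 it was 3.09 with an interval of the bare counts from 2.70 to 4.01. In EPI-like cells the ratios were 1.06 (0.61 to 1.54) and 1.08 (0.19 to 2.07). Within the blastocyst, Psme1 was the 1 member at 1.5-fold or more in TE-like over PrE-like cells (1.03, 0.72 to 1.40). By cluster it ran from 20.9 to 76.4 CPM in the TE-like and from 26.1 to 28.4 CPM in the PrE-like clusters, so that TE-like cluster 6 lay below both PrE-like clusters. The embryoid PrE-like clusters had 64.0 to 148 CPM of Psme1, so that the lowest lay below the highest TE-like cluster. The annotation places Emc9 over Psme1 on the opposite strand. Psme2b had 3 to 10 UMIs in the blastocyst classes and 137 in embryoid PrE-like cells.

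**Figure D4:**
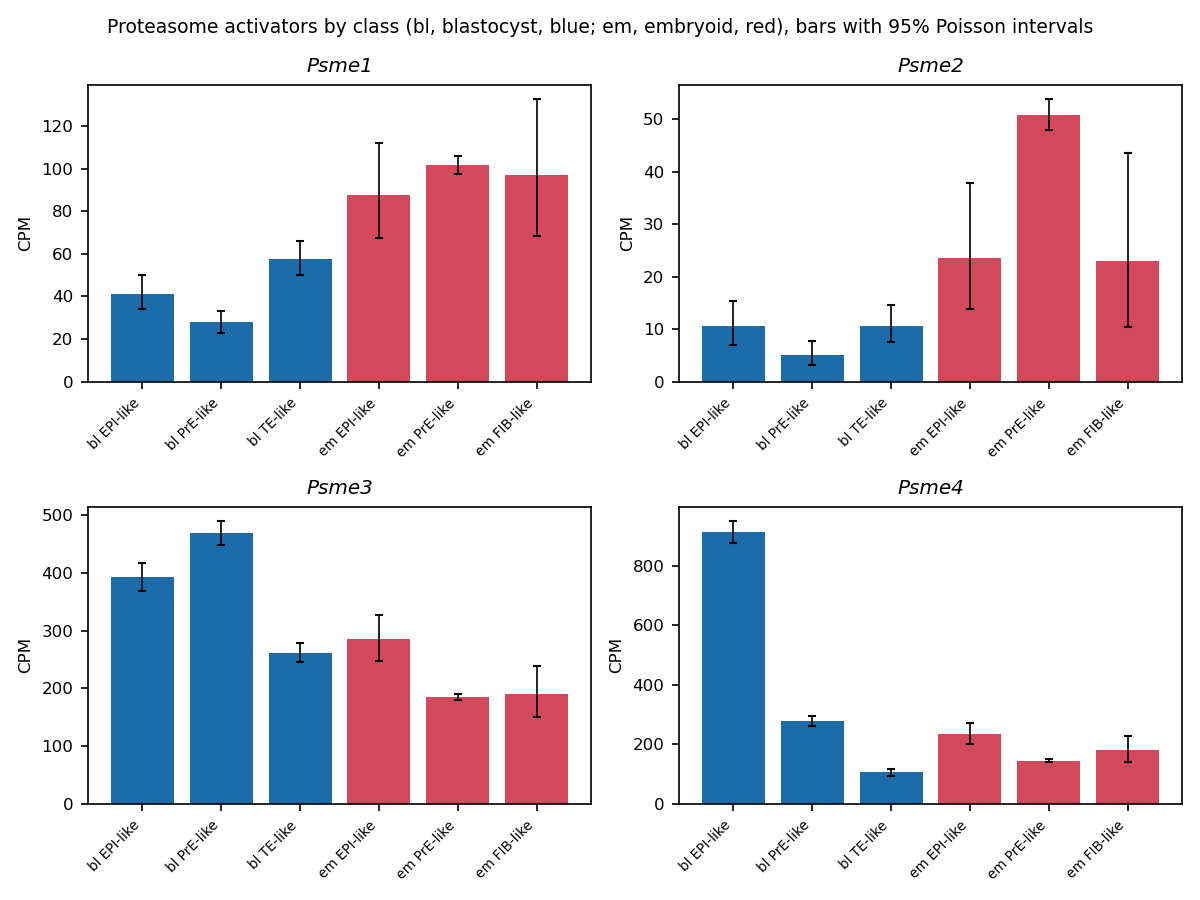
CPM of the 4 activator genes in the 6 named classes (bars, with 95% Poisson intervals), on a separate scale for each gene. Psme4 is at 913 CPM in blastocyst EPI-like cells and at 277 CPM or less elsewhere, while Psme1 and Psme2 are higher in the 3 embryoid classes. For Psme2, the intervals of embryoid EPI-like and FIB-like cells overlap those of blastocyst EPI-like and TE-like cells.

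The immunoproteasome subunits were low in every class. Psmb10 was the member of this set with the most UMIs: it had 28.8 CPM (22.7 to 36.0) in EPI-like, 13.6 CPM in PrE-like and 7.81 CPM in TE-like cells of the blastocyst, and 43.0 CPM (29.2 to 61.1), 9.32 CPM and 15.3 CPM in embryoid EPI-like, PrE-like and FIB-like cells. It was higher in EPI-like than in PrE-like cells of both libraries, with log2 ratios of PrE-like over EPI-like cells of -1.03 (-1.61 to -0.56) and -2.09 (-2.76 to -1.61). Within the blastocyst it was not even across a class. The EPI-like clusters had 16.0 CPM (cluster 2, 179 cells) and 49.4 CPM (cluster 5, 79 cells), and the PrE-like clusters 13.5 and 13.7 CPM. The larger EPI-like cluster thus lay close to the PrE-like clusters, and the difference between these classes came mostly from cluster 5. The TE-like clusters had 1.18 to 27.2 CPM, so that EPI-like and TE-like clusters overlapped. The antisense gene Gm16156 overlaps Psmb10.

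Psmb8 had 0 UMIs in all 3 blastocyst classes and in embryoid EPI-like and FIB-like cells, which by the floor of 3 UMIs allows up to 0.729 CPM in blastocyst PrE-like cells and up to 7.64 CPM in FIB-like cells. Embryoid PrE-like cells had 6 UMIs in 3944 cells. Unnamed embryoid cluster 6 had 23 UMIs in 18 of 334 cells, or 14.1 CPM (8.92 to 21.1). Psmb9 had 28 UMIs in 24 of 446 PrE-like cells of the blastocyst, or 6.81 CPM (4.52 to 9.84), 0 in EPI-like and 3 in TE-like cells, so that PrE-like cells were at least 5.99-fold above the floor of 3 UMIs over the EPI-like profile. In the embryoid it had 3 UMIs in PrE-like cells, 0 in EPI-like and FIB-like cells and 10 UMIs in 9 cells of cluster 6 (6.12 CPM, 2.94 to 11.3). Psmb9 lies at chr17:34181987-34187764 on the minus strand and overlaps Tap1 on the other strand. Without known strand use, UMIs from the stretch that both genes share cannot be told apart.

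Set against the constitutive subunits they replace, the 3 immunoproteasome genes made up 7.25% (5.76 to 8.99) of proteolytic subunit UMIs in blastocyst EPI-like, 7.64% (6.14 to 9.37) in PrE-like and 3.00% (2.05 to 4.23) in TE-like cells. The share was 9.57% (6.59 to 13.3) in embryoid EPI-like, 3.00% (2.62 to 3.42) in PrE-like and 4.65% (1.73 to 9.85) in FIB-like cells. That of FIB-like cells was 15.0% under 3 other clustering settings. Those settings gave the FIB-like name also to cells with Slpi and Vim among the leading genes of their cluster, as in unnamed embryoid cluster 6. The contrast of FIB-like cells with cluster 6 thus depended on the naming. The shares of EPI-like and PrE-like cells overlapped in the blastocyst and did not in the embryoid. By blastocyst cluster, the share was 4.63 and 10.3% in the EPI-like and 8.44 and 6.10% in the PrE-like clusters. Of the 84 immunoproteasome UMIs in blastocyst PrE-like cells, 28 were of Psmb9. Without known strand use, UMIs from the stretch that Psmb9 shares with Tap1 cannot be told apart. In embryoid cluster 6 the share was 17.5% (14.4 to 21.0), the highest of all named classes and unnamed clusters, of which Psmb10 gave 36.7 CPM.

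Cluster 6 was led by Slpi, Vim and Fbln2 and had 7 of 12 FIB markers at 20 CPM or more (summed level 1206 CPM, against 5124 CPM in FIB-like cells and 23.1 CPM in embryoid PrE-like cells). By the narrower naming rule the best class of cluster 6 was FIB, with 3 of 12 markers counted, too small a share for the name. Its 4 measured blood and leukocyte markers were at 0 except Cd68 (23.9 CPM, against 53.9 CPM in embryoid PrE-like cells). Other genes of interferon response and antigen processing were also measured there: Tap1 had 31.8 CPM against 7.6 CPM in embryoid PrE-like cells, Nlrc5 13.5 against 0.136 CPM and B2m 1112 against 573 CPM. H2-K1 and Tapbp were lower there, with 301 against 439 CPM and 68.6 against 80.1 CPM. Psme1 and Psme2, at 114 and 55.7 CPM, were close to embryoid PrE-like cells. The core level of cluster 6, 5347 CPM, was within the range of the embryoid PrE-like clusters.

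**Figure D5:**
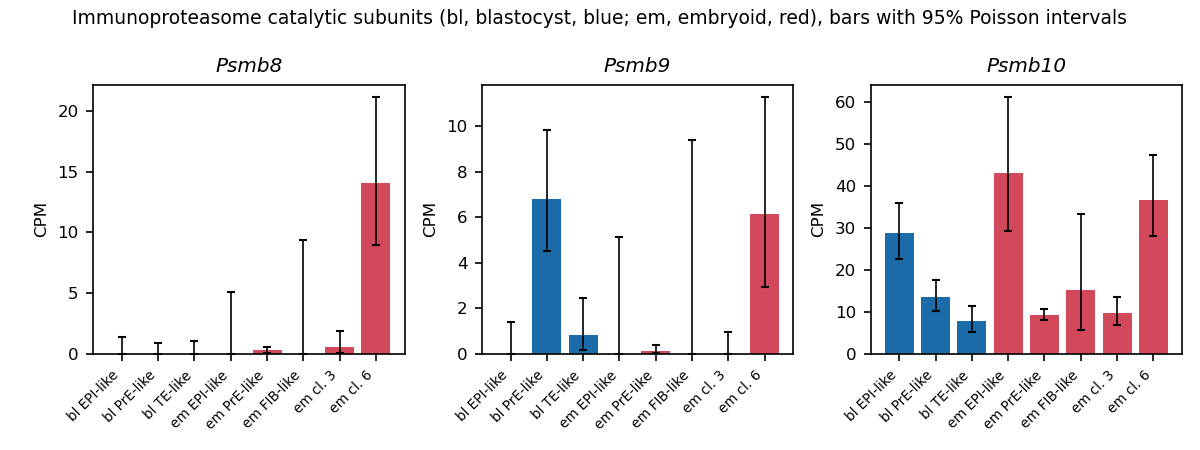
CPM of Psmb8, Psmb9 and Psmb10 in the 6 named classes and in unnamed embryoid clusters 3 and 6 (bars, with 95% Poisson intervals), on a separate scale for each gene. Psmb8 reaches 14.1 CPM in cluster 6 only, and Psmb9 6.81 CPM in blastocyst PrE-like cells and 6.12 CPM in cluster 6.

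Of the assembly factors that build the alpha ring, Psmg1 and Psmg4 were highest in EPI-like cells of the blastocyst. Psmg4 had 196, 104 and 66.1 CPM in blastocyst EPI-like, PrE-like and TE-like cells and 80.5, 51.0 and 89.1 CPM in embryoid EPI-like, PrE-like and FIB-like cells. Its log2 ratio was -1.55 (-1.79 to -1.34) in TE-like over EPI-like cells and -0.90 (-1.09 to -0.72) in PrE-like over EPI-like cells, and -1.27 (-1.70 to -0.89) and -1.02 (-1.19 to -0.87) in embryoid over blastocyst EPI-like and PrE-like cells. Psmg1 had 130, 82.2 and 61.1 CPM in the blastocyst and 147, 64.7 and 68.8 CPM in the embryoid, so that it was highest in both EPI-like classes. Its ratio was -1.07 (-1.34 to -0.84) in TE-like over EPI-like cells and -1.17 (-1.47 to -0.89) in embryoid PrE-like over EPI-like cells.

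Psmg2, the partner of Psmg1, did not follow it in the blastocyst, where it had 113, 115 and 103 CPM. In the embryoid it had 118 CPM in EPI-like, 59.4 CPM in PrE-like and 45.8 CPM in FIB-like cells, with a log2 ratio of -0.98 (-1.31 to -0.66) in PrE-like over EPI-like cells. Psmg3 stayed between 8.37 and 15.3 CPM in the named classes, near the limit of 10 CPM. Among the chaperones of the regulatory particle, Psmd5 had 94.0, 61.5 and 59.4 CPM in the blastocyst and 97.2, 48.0 and 73.9 CPM in the embryoid, again highest in EPI-like cells. Psmd10 ranged from 39.6 to 58.1 CPM and Psmd9 from 31.4 to 39.6 CPM over the named classes. The inhibitor Psmf1 ranged from 33.1 to 50.6 CPM, and its highest level was in blastocyst PrE-like cells (log2 ratio over EPI-like cells 0.44, 0.09 to 0.81).

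Psma8, the alpha subunit of the testis proteasome and a close relative of Psma7, was found mostly in EPI-like cells. It had 23 UMIs in 21 of 108 embryoid EPI-like cells (31.9 CPM, 20.2 to 47.9), against 5 UMIs in 3944 embryoid PrE-like cells and 0 in FIB-like cells, at median depths of 6345, 4951 and 3322 UMIs. In the blastocyst it had 13 UMIs in EPI-like (4.93 CPM), 7 in PrE-like and 2 in TE-like cells. The log2 ratio in embryoid over blastocyst EPI-like cells was 2.47 (1.66 to 3.80), the highest of all members there. Psmb11, the thymus subunit, had 0 or 1 UMI in every named class except embryoid PrE-like cells, with 8 UMIs in 3944 cells. Psmc3ip had 54.2, 30.6 and 16.7 CPM in blastocyst EPI-like, PrE-like and TE-like cells and 59.7, 27.8 and 30.6 CPM in the embryoid classes, so that it too was highest in EPI-like cells.

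Genes that work with the proteasome were followed in 5 lists of 50 genes: shuttle and partner proteins, regulators of proteasome genes, ubiquitin and its activating enzymes, antigen processing, and antioxidant targets. In TE-like over EPI-like cells 3 of the 39 genes compared were at least 2-fold higher and 7 lower, against 14.1% and 21.8% of all genes. In PrE-like over EPI-like cells 3 of 39 were higher and 4 lower, against 12.8% and 9.56%. In TE-like over PrE-like cells 3 of 40 were higher and 0 lower, against 10.7% and 19.8%. In embryoid over blastocyst PrE-like cells 11 of 41 were higher and 1 lower, against 15.7% and 11% of all genes. In embryoid over blastocyst EPI-like cells 6 of 40 were higher and 3 lower, against 11.8% and 8.92%. In embryoid PrE-like over EPI-like cells 11 of 42 were higher and 3 lower, against 19.2% and 12%. Of the members themselves, at most 3 were 2-fold higher in any of these comparisons, and from 1 to 6 were 2-fold lower.

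The ubiquitin shuttle gene Ubqln2 set the embryoid endoderm apart. It had 161, 200 and 211 CPM in blastocyst EPI-like, PrE-like and TE-like cells, 233 and 262 CPM in embryoid EPI-like and FIB-like cells, and 1211 CPM in embryoid PrE-like cells, with 1316 CPM in unnamed cluster 3 and 358 CPM in cluster 6. The log2 ratio of embryoid over blastocyst PrE-like cells was 2.59. Pomp, which matures the core particle, went with the alpha ring: it had 344, 345 and 313 CPM in the blastocyst and 237, 167 and 143 CPM in the embryoid, with a log2 ratio of -1.04 in embryoid over blastocyst PrE-like cells. Ubqln4, another shuttle, had 110 CPM in blastocyst EPI-like cells, 39.4 CPM in PrE-like and 28.7 CPM in TE-like cells.

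Of the factors that act on proteasome genes, Nfe2l1 was between 59.6 and 83.4 CPM in the 6 named classes, and Nfe2l2, which answers oxidative stress, between 50.8 and 103 CPM. The small Maf partner Maff had 14.8 CPM in blastocyst and 116 CPM in embryoid PrE-like cells (log2 ratio 2.88). Among antioxidant targets Sqstm1, an autophagy receptor, had 139 and 583 CPM in these classes (2.06), and Gclm, a subunit of the enzyme that starts glutathione synthesis, 46.0 and 126 CPM (1.43). The core subunits with an antioxidant element in the promoter window did not share a direction in that comparison: Psmb6 was at 0.20 (0.08 to 0.34), Psmb5 at -0.18 (-0.44 to 0.07), Psmc6 at 0.05 (-0.06 to 0.16) and Psmd12 at -0.13 (-0.22 to -0.04).

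Named genes of antigen processing were compared between the blastocyst and embryoid PrE-like classes, where Psme1 and Psme2 were higher in the embryoid. B2m, the light chain of MHC class I, had 55.0 and 573 CPM (log2 ratio of embryoid over blastocyst 3.36) and H2-K1, a heavy chain, 54.7 and 439 CPM (2.98). Tapbp was at 1.81 and H2-D1 at 1.56. Between the EPI-like classes these genes went both ways, with log2 ratios of 2.98 for B2m, 2.08 for H2-K1, -0.78 for Tapbp and -1.23 for H2-D1. Between the PrE-like classes Psmb10 was lower in the embryoid (-0.50, -0.98 to -0.09), and Psmb8 and Psmb9 had 6 and 3 UMIs there, so that the immunoproteasome subunits did not share the ratio of the PA28 genes.

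Other large complexes were taken through the same comparisons to place the core. In TE-like over EPI-like cells of the blastocyst the median log2 ratio was -0.66 for the 8 subunits of the chaperonin, which folds actin and tubulin, -0.69 for the 9 of the COP9 signalosome, a relative of the lid, and -0.32 for the 14 of the initiation factor eIF3, against -0.32 for the core. In PrE-like over EPI-like cells the medians were -0.23, -0.31 and -0.12, against -0.34 for the core. In embryoid over blastocyst EPI-like cells they were 0.41, -0.28 and 0.19, against -0.27 for the core, and in embryoid over blastocyst PrE-like cells -0.24, -0.27 and -0.08, against -0.28. Between the EPI-like classes the core and the COP9 signalosome were thus lower in the embryoid, and the chaperonin and eIF3 higher. In TE-like over PrE-like cells of the blastocyst the medians were -0.46, -0.43 and -0.17, against 0.01 for the core. In embryoid PrE-like over EPI-like cells they were -0.88, -0.30 and -0.49, against -0.32. Within the embryoid, the chaperonin and eIF3 thus had lower medians than the core, and the COP9 signalosome was close to it.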

How the data were processed

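The deposited files hold raw UMI counts per gene symbol and cell barcode, all whole numbers above 0. Per the submitters' processing notes, the build was mm10 and the tools included featureCounts 1.6.4 (Subread), STAR 2.7.1a, UMI-tools 1.0.1 and bcl2fastq 2.19.1.403. Annotation, strand setting and cell calling were not given in the sources used here. In all, the tables held 11047555 (blastocyst) and 28923930 (embryoid) UMIs.

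Barcodes were kept with at least 1000 UMIs, 500 genes and at most 25% mitochondrial UMIs. Scrublet in scanpy 1.11.5 then removed 17 blastocyst barcodes and called 0 embryoid barcodes, so that in effect it did not work there. Each library was clustered alone by Leiden (leidenalg 0.10.2, resolution 1.0, seed 1) on 30 components of 2000 variable genes, with members and listed genes left out. Each cluster was named for the class that had most of its markers, as a share, at 20 CPM or more and at 0.333 or more of their highest level, given at least 3 such markers and a share of at least 0.333. It stayed unnamed where its leading genes went against the name or its median mitochondrial share fell short of 0.1 of that in its library. The share of at least 0.333 was added after an embryoid cluster (6) had been seen.

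UMIs were summed by class and scaled to CPM, with 95% Poisson intervals for levels, Clopper-Pearson intervals for shares and exact intervals of the ratio of the counts. The ratio was tested on simulated data. Named were the proteolytic subunits, activators, inhibitor, chaperones, tissue forms and, per comparison, up to 5 members in each direction past 1.5-fold, with listed genes past 2-fold. Further genes named (among them Psma2, Psma4, Psma5, Psma6, Psmb2, Psmb4, Psmc2, Psmc3, Psmc4, Psmc6 and the Psmd genes) were chosen after their values were seen, as was embryoid cluster 6. Members and lists were chosen with earlier results of these data known. Gene positions are those of the GENCODE M21 annotation (GRCm38), in which 24 of the 50 members overlap another gene. The work was done in Python 3.11.15 with scipy 1.17.1, numpy 2.4.6, matplotlib 3.10.9 and pandas 2.3.3. A gene of the antigen processing list is not reported here.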

Additional observations from a re-analysis of the deposited data

Results flagged for a closer look

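Psme3 went opposite ways between EPI-like and PrE-like cells of the 2 libraries. Its log2 ratio of PrE-like over EPI-like cells was 0.25 (0.15 to 0.37) in the blastocyst and -0.63 (-0.83 to -0.42) in the embryoid. Each is a ratio of summed profiles from 1 library, and the difference between the 2 ratios was not tested.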

How the results depend on the processing

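Of 62 values of the core medians under other settings, 60 stayed within the spread of the subunits. Scaled to the median of ratios, the median was -0.037 in blastocyst TE-like over EPI-like cells and 0.36 in TE-like over PrE-like cells. That scaling, chosen for member counts after seeing the data, gave 1 member higher and 6 lower in TE-like over EPI-like cells, and 4 higher and 1 lower in TE-like over PrE-like cells. With all genes that have a UMI, 2 members were higher in TE-like over EPI-like, 1 in PrE-like over EPI-like and 3 in TE-like over PrE-like cells. With a mean of at least 50 CPM, 0 were higher in TE-like over PrE-like, 2 in embryoid over blastocyst EPI-like and 0 in embryoid PrE-like over EPI-like cells, since fewer genes were compared. No share of all genes is given beside the member counts under these other settings. The immunoproteasome share was 3.56% in embryoid PrE-like cells at resolution 0.5. In FIB-like cells it was 15% at resolution 0.5, 15.0% at resolution 2.0 and 15% with all variable genes used for clustering. The other 26 of 30 values of this share stayed within their interval, and 700 of 738 values of single members, whose alternatives were added after seeing the data, kept their size. In TE-like over PrE-like cells the core median, 0.01, was -0.037 with cells weighted equally, and no other value in these sets changed sign. Adding unnamed cluster 3 to embryoid PrE-like cells, and leaving Psma2 and Psma7 out of the alpha share, were also chosen after seeing the data. Depth limits Psma8, Psmb8, Psmb9, Psmb11 and Psme2b, with 28 UMIs or fewer in most classes, and every FIB-like and embryoid EPI-like value, from 392657 and 720139 UMIs. No paired analysis was possible because each sample is 1 library.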
